A study of Mus musculus with 6 samples.

Results

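DNA replication and S phase genes were examined in hair follicle bulbs of mice with and without functional Notch1. The module was a list of 45 gene symbols, drawn up by gene name with earlier results of these data known, and 44 of them had a probe set that the array annotation assigns to that gene alone; Chaf1a, a subunit of the histone chaperone CAF-1, had none and was not analysed here. Each gene was represented by the probe set with the highest mean signal over the 6 arrays, and all 44 passed the filter on dim probe sets, so the module made up 44 of 12611 genes tested. Total RNA came from hair follicle bulbs at postnatal day 9 and was hybridised to 6 one-colour oligonucleotide arrays. The emN1 bulbs (2 arrays) were from skin in which Notch1 was deleted in the embryo and carry no functional receptor. The anN1 bulbs (2 arrays) were from skin deleted during anagen, the growth phase, and still have functional Notch1, and wild-type bulbs (2 arrays) carry no deletion. The anN1 and wild-type arrays together are called controls. The labels name neither the driver of the deletion nor the strain, and do not say whether animals were pooled. The arrays were run as 2 sets: emN1 1 and anN1 1 in the first, and emN1 2, anN1 2, wild-type 1 and wild-type 2 in the second. A signal is the deposited linear array intensity, and a log2 difference is taken on log2(signal + 17.8). Replicates are labelled biological without a statement on animals, and every p-value here reflects only how these 6 arrays varied.

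Cells copy their DNA once per cycle. In G1, the origin recognition complex, Cdc6 and Cdt1 load the Mcm helicase onto origins; in S phase Cdc45, the GINS complex and Mcm10 turn it into an active helicase, and primase, the replicative polymerases, the sliding clamp and its loader copy the strands while nucleotide enzymes supply precursors. Most of these genes are transcribed at the G1 to S transition under E2F control. In the growing hair bulb the dividing cells are the matrix keratinocytes around the dermal papilla, whose daughters leave the cycle and form the shaft and the inner root sheath.

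The promoters of 4 members described below are shown because the members share this regulator in textbook accounts. The windows are from RefSeq (GRCm38.p6), 250 bases before to 50 after an annotated start, printed 5′ to 3′ along the gene's strand. Capitals mark E2F-type octamers: TTTCCCGC, TTTCGCGC, TTTGCCGC or TTTGGCGC on either strand, overlaps allowed. Of the members described one by one, those 4 had at least 1 match.
Mcm7, chr5:138171834-138172133, minus strand: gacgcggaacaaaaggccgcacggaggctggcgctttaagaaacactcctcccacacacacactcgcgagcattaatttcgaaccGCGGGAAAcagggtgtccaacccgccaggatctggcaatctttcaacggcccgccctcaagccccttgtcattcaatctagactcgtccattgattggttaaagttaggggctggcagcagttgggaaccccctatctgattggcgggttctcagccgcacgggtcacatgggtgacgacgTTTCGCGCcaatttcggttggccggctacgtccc
Rfc3, chr5:151651159-151651458, minus strand: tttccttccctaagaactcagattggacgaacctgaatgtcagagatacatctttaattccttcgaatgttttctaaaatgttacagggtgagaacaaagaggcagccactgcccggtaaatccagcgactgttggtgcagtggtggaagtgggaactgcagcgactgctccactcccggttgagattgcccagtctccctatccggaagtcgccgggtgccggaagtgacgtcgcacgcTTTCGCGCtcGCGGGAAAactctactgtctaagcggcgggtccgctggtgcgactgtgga
Cdc6, chr11:98907901-98908200, plus strand: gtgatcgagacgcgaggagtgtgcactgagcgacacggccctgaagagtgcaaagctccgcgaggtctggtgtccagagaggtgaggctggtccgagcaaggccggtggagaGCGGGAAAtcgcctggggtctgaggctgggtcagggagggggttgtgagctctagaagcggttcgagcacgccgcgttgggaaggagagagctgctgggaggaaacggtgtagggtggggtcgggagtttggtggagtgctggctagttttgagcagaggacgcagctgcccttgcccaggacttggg
Pold1, chr7:44548766-44549065, minus strand: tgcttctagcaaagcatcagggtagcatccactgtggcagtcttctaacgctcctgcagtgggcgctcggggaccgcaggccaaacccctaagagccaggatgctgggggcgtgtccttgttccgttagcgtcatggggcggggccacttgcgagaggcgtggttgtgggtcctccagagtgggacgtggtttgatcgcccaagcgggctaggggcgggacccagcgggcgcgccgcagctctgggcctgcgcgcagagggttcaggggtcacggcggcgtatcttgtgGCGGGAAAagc
In Mcm7, 1 match began 165 bases before the start and another at position 17 after it. In Rfc3, 1 began 10 bases before the start and another at position 1. Among the 37 members found in the promoter table, 12 (32.4%) had a match in at least 1 window, against 2.60% of the 27025 genes in the table. The median log2 difference of emN1 from controls was -0.23 in the 12 members with a match. It was also -0.23 in the 24 without one that were measured, and a link between match and difference was not tested. A match is a run of letters, not a shown site.

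Most members had slightly lower signals in emN1 bulbs than in controls, and only Dut, which hydrolyses dUTP and so keeps uracil out of DNA, passed the test across all genes. The median log2 difference over the 44 members was -0.24 (a 0.848-fold level), against -0.017 over all 12611 genes, and the values ran from -0.60 to 0.08. The log2 difference was below 0 in 40 of 44 members, against 52.5% of all genes and 56.2% of the 3863 genes of similar signal (2483 to 10160, the range of the middle of the module). In addition, 12 members had an unadjusted limma p under 0.05 in the lower direction, against 9.79% of all genes and 11.4% of those of similar signal; none had one in the higher direction, against 10.9% of all genes. After Benjamini-Hochberg adjustment over all 27022 kept probe sets, 1 of 44 members was lower and none higher, against 1.84% of all genes that were lower. At that threshold the share of members called is near the background, and no member but Dut is called changed here. In simulated arrays of the same design (27022 probe sets, 200 changed), a log2 change of 0.5 was recovered in 0% of changed probe sets. A change of 1 was recovered in 17.5%, while the arrays themselves gave a call for Dut at -0.55. The arrays had 1020 probe sets called, more than were changed in the simulation, and the cut set by the adjustment depends on that number. The simulated shares are therefore not the recovery to be expected in these data.

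The 2 array sets gave module medians of the same sign and different sizes, while single members and groups could differ in direction. In 30 of 44 members (68.2%) each emN1 array lay below every control array of its own set, against 22.6% of all genes and 25.6% of genes of similar signal. No member had emN1 above every control of its set, against 21.2% of all genes. In the first set, emN1 1 was below anN1 1 in 31 of 44 members (51.8% of all genes), with a median log2 difference of -0.11. In the second set, emN1 2 was below anN1 2 in 41 members (51.1% of all genes, median -0.27), below the mean of wild-type in 41 (50.9%, median -0.27), and the lowest of the 4 arrays in 38, against 33.1% of all genes. By the same measure, anN1 2 was below the mean of wild-type in 24 members (48.3% of all genes). Without emN1 replicate 2, the fitted difference is the first-set contrast already given, emN1 1 minus anN1 1 (31 members below 0, median -0.115). Without emN1 replicate 1, the fitted difference rests on the second set and was below 0 in 42 members. The module also moved together between arrays of 1 group: wild-type 2 was above wild-type 1 in 36 of 44 members (81.8%, against 50.2% of all genes), with a median log2 difference of 0.13. The emN1 2 shift was thus larger than that between the 2 wild-type arrays of its set, and the emN1 1 shift was no larger than it.

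**Figure D1:**
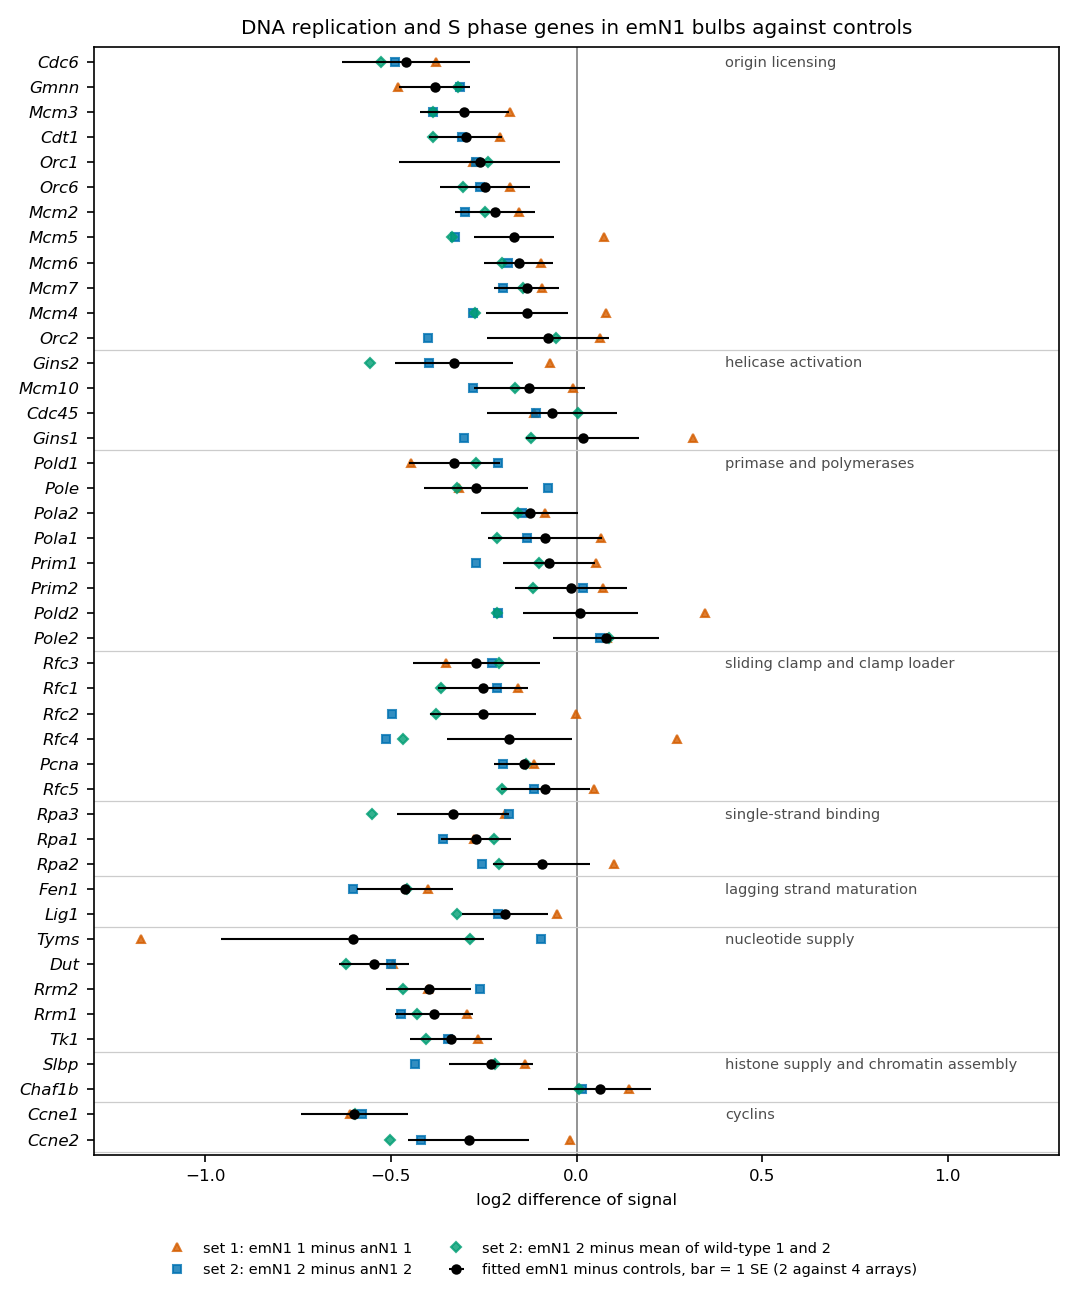
Log2 differences of the 44 measured members, by role. Black points are the fitted emN1 minus controls differences with 1 SE (2 against 4 arrays), and coloured points are differences within an array set; most points lie left of 0, the points of the first set (triangles) spread to both sides, and Dut is the 1 member whose adjusted p was under 0.05.

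Against anN1 and against wild-type the fitted differences were similar in size. These comparisons share the emN1 arrays and are not independent. The first set held no wild-type array, so the difference from wild-type drew on emN1 1 only through the anN1 arrays. Within the second set, the median of emN1 2 minus the mean of wild-type was -0.27. The median over the 44 members was -0.19 for emN1 minus anN1, with 39 members below 0 and none past the threshold (0.896% of all genes were called lower; 9 members had an unadjusted p under 0.05 in the lower direction, against 7.8% of all genes). It was -0.24 for emN1 minus wild-type, with 39 below 0 (52% of all genes) and only Dut past the threshold (0.872% of all genes were called lower); 11 members had an unadjusted limma p under 0.05, against 7.86% of all genes. Between the controls, anN1 minus wild-type, the median was -0.04, with 28 below 0 (49% of all genes), and no member passed in limma (1 had an unadjusted p under 0.05 in the lower direction, against 2.27% of all genes, and 0.0238% of all genes were called lower). Notch1 itself gave signals of 6498 and 6292 in emN1, 15077 and 12527 with anN1, and 23750 and 34070 with wild-type bulbs, and the anN1 arrays were below the wild-type ones for Notch1 while the replication genes of both kinds of control lay close together.

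Origin licensing genes were below 0 in 12 of 12 cases, with a median of -0.23 and none past the threshold. Cdc6, the ATPase that helps load the helicase, had signals of 892 in emN1 1 and 1165 in anN1 1, and of 1220 in emN1 2 against 1721 in anN1 2, 1586 in wild-type 1 and 1966 in wild-type 2. Both emN1 arrays were the lowest of their set, but emN1 2 lay above anN1 1, so the groups overlapped across sets; the log2 difference was -0.46 (SE 0.17, limma Benjamini-Hochberg adjusted p = 0.224). Gmnn encodes geminin, which binds Cdt1 and prevents a second round of licensing. Its signals were 9427 and 7649 for emN1 against 13154, 9513, 9489 and 9597 in anN1 1, anN1 2, wild-type 1 and wild-type 2. Both emN1 arrays lay under all 4 controls, emN1 1 by little, and the log2 difference was -0.38 (SE 0.10, limma adjusted p = 0.0756). In the fit that averages the probe sets of each gene, the limma adjusted p of Gmnn was 0.0455. Gmnn has a single probe set, so nothing was averaged for it and its difference was unchanged there.

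The 6 subunits of the Mcm2 to Mcm7 helicase had log2 differences between -0.30 (Mcm3) and -0.13 (Mcm4). Mcm7, the brightest licensing gene, had signals of 34074 and 36341 in emN1 1 and anN1 1, and of 21451 in emN1 2 against 24607, 22328 and 25160 in anN1 2, wild-type 1 and wild-type 2. The step between array sets was larger here than any step between groups, and the log2 difference was -0.13 (SE 0.09, limma adjusted p = 0.519), and 0.0222 without array set in the model. Mcm3 and Mcm6 were the subunits with both emN1 arrays under all 4 controls, while Mcm4 and Mcm5 were higher in emN1 1 than in anN1 1. Cdt1 differed by -0.30 (SE 0.10), though its second probe set stood at 0.00. The origin recognition subunits Orc1, Orc6 and Orc2 differed by -0.26 (SE 0.22), -0.25 (SE 0.12) and -0.08 (SE 0.16).

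Helicase activation genes had a median of -0.10, with 3 of 4 below 0. Gins2, a subunit of the 4-part GINS complex, had signals of 3198 and 3360 in emN1 1 and anN1 1, and of 1521 in emN1 2 against 2009, 2134 and 2359 in anN1 2, wild-type 1 and wild-type 2. Almost all of its difference came from the second set, and it was -0.33 (SE 0.16, limma adjusted p = 0.352). Gins1, another subunit, was higher in emN1 1 (3663) than in anN1 1 (2942) and lower in emN1 2 (3276) than in anN1 2 (4043), wild-type 1 (3697) and wild-type 2 (3443). The sets thus went opposite ways for Gins1, with a log2 difference of 0.02 (SE 0.15) whose sign changed with the scaling of the arrays. Mcm10 differed by -0.13 (SE 0.15) and Cdc45 by -0.07 (SE 0.18).

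Primase and polymerase genes were the least shifted of the larger groups, with a median of -0.08, 6 of 8 below 0, and 3 of 8 under every control of their set. For emN1 minus anN1, their median was 0.06 in the first set, with 5 of 8 above 0, and -0.14 in the second. Pold1, the catalytic subunit of polymerase delta, had signals of 5143 in emN1 1 and 7017 in anN1 1, and of 2860 in emN1 2 against 3316, 3289 and 3629 in anN1 2, wild-type 1 and wild-type 2. Each emN1 array was the lowest of its set, and the log2 difference was -0.33 (SE 0.12, limma adjusted p = 0.220), with -0.34 in the second Pold1 probe set. Prim1, the catalytic primase subunit and the brightest gene of this group, had signals of 13138 and 12664 in the first set, and of 9099 in emN1 2 against 10975, 8808 and 10830 in anN1 2, wild-type 1 and wild-type 2. The emN1 1 signal was above that of anN1 1, and emN1 2 lay among the controls of its set, for a log2 difference of -0.07 (SE 0.12) that was 0.027 without array set in the model and 0.0529 without emN1 replicate 2. Pole, the catalytic subunit of polymerase epsilon, differed by -0.27 (SE 0.14), whereas its partner Pole2 differed by 0.08 (SE 0.14) and the delta subunit Pold2 by 0.01 (SE 0.16).

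All 6 genes of the sliding clamp and its loader were below 0, with a median of -0.22. Pcna, the clamp that tethers polymerases to DNA, was the brightest member of the module. Its signals were 47982 and 51961 in emN1 1 and anN1 1, and 42416 in emN1 2 against 48646, 44011 and 49459 in anN1 2, wild-type 1 and wild-type 2. Each emN1 array was the lowest of its set by a small step, and the log2 difference was -0.14 (SE 0.08, limma adjusted p = 0.465). Rfc3, a loader subunit, had signals of 1135 and 1452 in the first set, and of 894 in emN1 2 against 1050, 1043 and 1029 in the second. That is a log2 difference of -0.27 (SE 0.17), with 0.19 (SE 0.19) in its other probe set. Rfc4 differed between the sets, at 0.27 in the first and -0.51 against anN1 in the second. The single-strand binding genes Rpa1 and Rpa3 differed by -0.27 (SE 0.09) and -0.33 (SE 0.15), and neither passed. Rpa1 had signals of 24492 and 29638 in emN1 1 and anN1 1, and of 18054 in emN1 2 against 23184, 19905 and 22334 in anN1 2, wild-type 1 and wild-type 2, while its second probe set stood at 0.00 (SE 0.16). Rpa3 had 4084 and 4667 in the first set, and 3288 in emN1 2 against 3734, 4792 and 4861 in the second, so anN1 2 lay nearer to emN1 2 than to wild-type.

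Lagging strand genes Fen1 and Lig1 were both below every control of their set. Fen1, the flap endonuclease that trims Okazaki fragments, had signals of 11783 in emN1 1 and 15553 in anN1 1, and of 7126 in emN1 2 against 10823, 8573 and 11160 in anN1 2, wild-type 1 and wild-type 2. Within each set emN1 was the lowest, while across sets emN1 1 exceeded all controls of the second set. The log2 difference was -0.46 (SE 0.13, limma adjusted p = 0.104), and -0.15 (SE 0.13) in the second Fen1 probe set. Lig1, the ligase that seals the fragments, differed by -0.19 (SE 0.12).

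The 5 nucleotide supply genes had the same direction on every array. All 5 were below every control of their set, all 5 had both emN1 arrays under all 4 controls (10.4% of all genes did, and 9 of the 44 members, 20.5%), and the median was -0.40. Dut had signals of 9251 and 9341 with emN1 bulbs, against 13032 and 13221 with anN1 bulbs and 14168 and 14571 with wild-type bulbs. The gap between emN1 and the nearest control was wider than the whole range of the controls. Dut fell by 0.55 on the log2 scale in emN1 (SE 0.10, 2 against 4 arrays, a 0.685-fold level, limma Benjamini-Hochberg adjusted p = 0.0187). In the fit with 3 groups, Dut fell by 0.62 against wild-type (SE 0.12, limma adjusted p = 0.0473). That call was kept in 4 of 14 alternatives, with limma adjusted p from 0.039 to 0.963. Against anN1 in the same fit, Dut differed by -0.50 (SE 0.10, limma adjusted p = 0.0697). The Dut call against controls did not hold in limma when emN1 replicate 1, emN1 replicate 2 or anN1 replicate 1 was left out. It was also lost without the intensity trend of the variance (limma adjusted p = 0.168) and without the array set in the model (0.122). Averaging with a dim second probe set (mean signal 174) lost it too (0.514). The direction of Dut held in all of these, though the trend cannot change the difference and leaving out emN1 1 or anN1 1 gives the same one. Against wild-type the call was lost without any one of the arrays except wild-type 1, and the difference was -0.08 when averaged with the dim probe set.

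Rrm1, the large subunit of ribonucleotide reductase, which makes deoxynucleotides, had signals of 15169 and 12889 for emN1, 18615 and 17898 for anN1, and 15891 and 18964 for wild-type. The emN1 arrays were the lowest, with wild-type 1 close above emN1 1, and the log2 difference was -0.38 (SE 0.10, limma adjusted p = 0.0952). Rrm2, the small subunit made in S phase, had 12460 and 12749 in emN1, against 16446 and 15278 with anN1 and 16065 and 19320 with wild-type bulbs. These groups did not overlap, at -0.40 (SE 0.12, adjusted p = 0.114), and the other 2 Rrm2 probe sets gave -0.50 and -0.34. Tk1, the S phase thymidine kinase, differed by -0.34 (SE 0.11). Tyms, the thymidylate synthase that uses the product of Dut, was the dimmest member, with 135 and 274 in emN1, against 328 and 294 with anN1 and 290 and 393 with wild-type bulbs. The emN1 1 value was close to the 112 that bounds 95% of undetected control probe sets, and the log2 difference of -0.60 had an SE of 0.35. It was -0.222 without emN1 replicate 1 or anN1 replicate 1 and -1.17 without emN1 replicate 2, and the second Tyms probe set stood at 0.04.

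**Figure D2:**
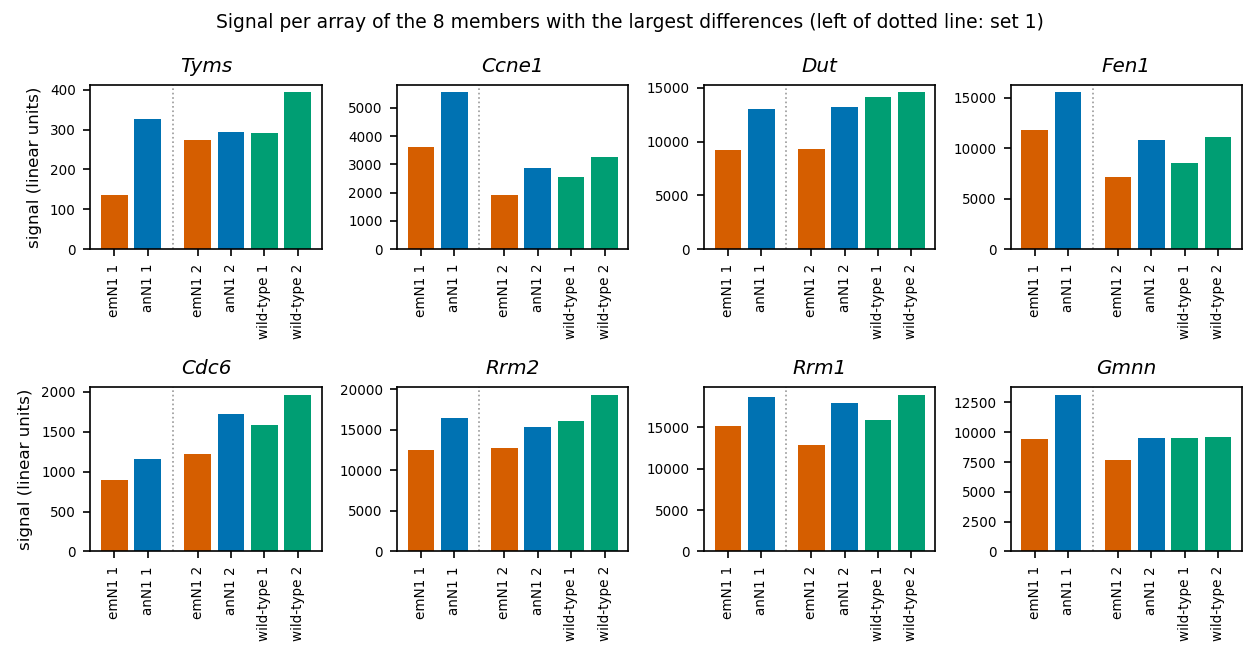
Signal per array (linear units, bars from 0) of the 8 members with the largest emN1 minus controls differences; the 2 arrays left of the dotted line are the first set. Each emN1 bar (orange) is the lowest of its set, most evenly for Dut, and for Ccne1, Fen1 and Gmnn the sets differ in level.

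In the cyclin group, Ccne1, whose product with Cdk2 starts S phase, had signals of 3635 in emN1 1 and 5554 in anN1 1, and of 1912 in emN1 2 against 2862, 2565 and 3280 in anN1 2, wild-type 1 and wild-type 2. The step from anN1 to emN1 was the same in both sets, at -0.61 and -0.58, and the fitted log2 difference was -0.60 (SE 0.14, limma adjusted p = 0.0638). The second Ccne1 probe set differed by -0.10 (SE 0.18). Ccne2 differed by -0.29 (SE 0.16), with -0.02 in the first set. Slbp, which binds the stem-loop of histone mRNA, had 6399 and 7048 in the first set, and 8366 in emN1 2 against 11324, 9889 and 9611 in anN1 2, wild-type 1 and wild-type 2. Its emN1 arrays were the lowest of each set, at -0.23 (SE 0.11, adjusted p = 0.359). Chaf1b, a CAF-1 subunit that places new histones behind the fork, stood at 0.06 (SE 0.14).

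Probe sets of 1 gene did not always give the same size. The 44 members had 96 probe sets, of which 82 were kept, and 29 members had several. Of the 38 kept probe sets other than the representative, 30 were below 0 and none passed in limma. In 7 members (Cdt1, Mcm10, Orc1, Rfc3, Rpa1, Rpa2 and Tyms) 1 of them had the opposite sign. Of the 44 representatives, 6 end in _x_at, the maker's mark for probe sets with probes that can match other transcripts; among these the second probe set was closer to 0 for Ccne1, Fen1, Mcm5 (-0.06 against -0.17) and Mcm4 (-0.08 against -0.13), about equal for Pold1, and on either side of the first for the 2 others of Rrm2. The sizes for Ccne1 and Fen1, which shrank most, are uncertain.

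**Figure D3:**
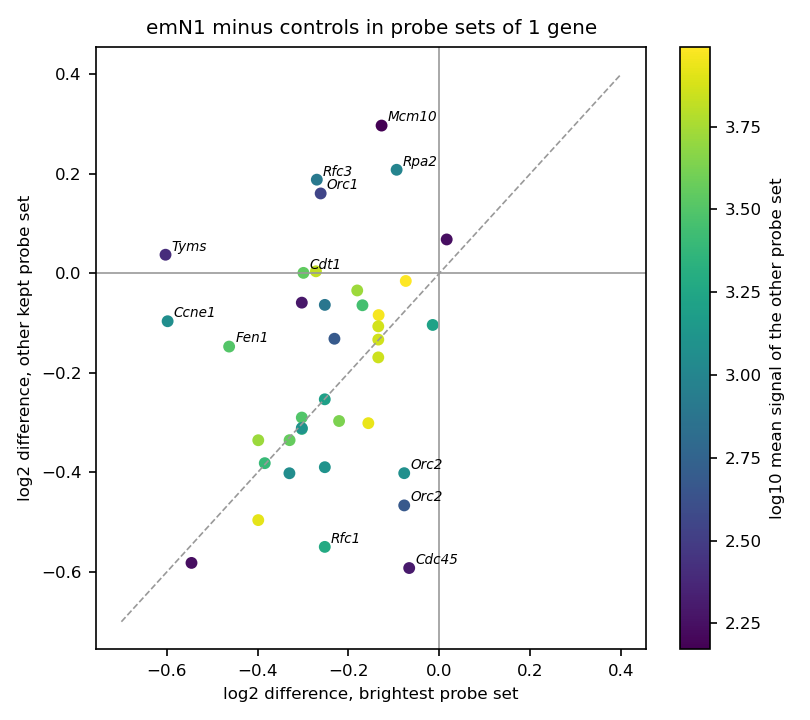
Log2 difference, emN1 minus controls, of each member's brightest probe set (horizontal) and of its other kept probe sets (vertical), coloured by log10 mean signal, with the line of equality dashed. Most points lie in the lower left, and Ccne1, Fen1 and Tyms are among those far above the line.

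Related genes from lists outside the module gave the same direction with a few calls. Among 32 other fork and origin genes 24 were below 0 (median -0.16) and none passed; Rnaseh2c, a subunit of RNase H2, differed by -0.45 (SE 0.12; -0.23 and -0.05 in its other probe sets) and Clspn, an adaptor of the replication checkpoint, by -0.43 (SE 0.14). All 13 measured other genes of nucleotide metabolism were below 0 in the fit (median -0.18) and none passed. Against anN1, 7 of the 13 were below 0 in the first set (median -0.02) and 13 in the second (median -0.20). Their other kept probe sets lay on both sides of 0, with Cad at 0.11 (SE 0.12). Ctps, which makes CTP, differed by -0.33 (SE 0.10) and Dctd, which deaminates dCMP, by -0.78 (SE 0.25). Of 10 genes of chromatin duplication, 8 were below 0 (median -0.21) and none passed; Rbbp7, a histone-binding protein, differed by -0.45 (SE 0.12; -0.10 in a second probe set nearly as bright) and Uhrf1, which guides DNA methylation to new strands, by -0.44 (SE 0.13). Of 19 measured mitosis genes 18 were below 0 (median -0.34) and 2 fell. These were Ccnb2 by 0.55 (SE 0.11) and Bub1b by 0.46 (SE 0.10), with limma adjusted p of 0.0369 and 0.0486. The Ccnb2 signal in emN1 1 (9287) lay above anN1 2 (9118) and wild-type 1 (9039.5), so its groups overlapped across sets. Mki67 was the mitosis gene above 0, at 0.08 (SE 0.09, mean signal 41429).

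Regulators of entry into S phase included 6 genes that passed. Of 31 such regulators, 5 fell, 1 rose and 25 did not pass, where 1.84% of all genes fell. Of the 27022 kept probe sets, 1020 passed in either direction, 370 of them lower. Cdk2, the kinase partner of cyclin E, had signals of 1152 and 2651 in emN1, against 3812 and 4515 with anN1 and 6676 and 4268 with wild-type bulbs. Both emN1 values lay under all controls, and Cdk2 fell by 1.24 on the log2 scale (SE 0.24, limma adjusted p = 0.0261). Ccnd1, cyclin D1, which carries growth signals to the G1 kinases, had 5848 and 4288 in emN1, against 10218 and 9838 with anN1 and 8269 and 9787 with wild-type bulbs. It fell by 0.99 (SE 0.13, adjusted p = 0.00579), and its other 2 probe sets passed as well, at -1.13 and -1.10. Cdc25a, the phosphatase that activates Cdk2, fell by 0.82 (SE 0.16, adjusted p = 0.0335), while its second probe set stood at -0.14. Cdkn1c, an inhibitor of these kinases, rose by 1.08 (SE 0.18, adjusted p = 0.0149), from between 679 and 1192 in the controls to 1639 and 2172 in emN1. The remaining calls, named after their values were seen, were E2f8, a repressive E2F, which fell by 0.60 (SE 0.13), and Cdk4, the partner of cyclin D, which fell by 0.51 (SE 0.10). These calls, with those of Ccnb2 and Bub1b, depended on the processing: of the 8 genes, 0 passed in limma without the intensity trend, 0 without array set in the model, 0 without emN1 replicate 2, 1 without emN1 replicate 1 and 1 without anN1 replicate 1. With anN1 replicate 2, wild-type replicate 1 or wild-type replicate 2 left out 3, 3 and 4 passed, and 4 passed with equal array medians. Ccnd1 kept its call in 11 of 14 alternatives, Cdk2 and Cdkn1c in 9 each and Bub1b in 3. All 8 kept their direction in each, but the filter and trend alternatives leave the log2 difference itself unchanged. Leaving out emN1 1 or anN1 1 gives the same difference, so the 14 are not separate checks of direction. These alternatives were run on the 8 genes after seeing the data.

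Cell type markers also differed between emN1 and controls, and their part in the result was not tested. All marker lists but melanocytes had medians above 0, opposite to the module. In bulk RNA fewer cells of a type and less RNA per cell cannot be told apart. Against controls, 1020 of the 27022 kept probe sets passed in either direction, 370 of them lower. For emN1 minus wild-type 584 passed, and for anN1 minus wild-type 20. The hair matrix list held Msx1, Msx2, Lef1, Hoxc13, Shh, Foxn1, Dlx3, Gata3, Cux1, Ovol1, Bambi, Krt5 and Krt14. How far it measures matrix cells alone was not tested. Of these 13 markers 3 rose and none fell (median 0.20). Their summed signal was 147147 to 154797 in the controls and 175002 and 183737 in emN1. The log2 difference was below 0 in 4 of the 13, down to -0.48. Of 11 cortex and cuticle markers 4 rose (median 1.94; summed 127508 to 314647 in controls, 443878 and 412536 in emN1). The controls differed here: the sums were 314647 and 236943 for anN1 and 127508 and 128831 for wild-type, with 4 markers higher in anN1 than in wild-type (median 2.21) and 10 higher in emN1 than in wild-type (median 3.45). Of 8 inner root sheath markers 2 rose (median 0.22; 446707 to 485567, and 581193 and 533842). Of 11 dermal markers 6 rose (median 0.89; 76999 to 101458, and 150234 and 132208). Of 10 immune markers 5 rose (median 1.97; 2284 to 2511, and 8435 and 9160). Of the 6 endothelial and pericyte markers kept (Pecam1, Cdh5 and Tie1 were too dim), 3 rose (median 1.02; 16249 to 23053, and 40227 and 41097). Of 10 melanocyte markers 9 fell (median -1.69; 218235 to 322829, and 115737 and 97420). No marker was listed at 0. The summed signal of the 44 replication genes was 321532 to 376877 in the controls, and the total was lower in emN1 within both sets: 338892 against 376877 in the first, and 276746 against 321532 to 353060 in the second. Of the RNA quality ratios, 1 separated the sets: the ratio of the 3′ to the 5′ probe set of beta-actin was 4.60 and 5.64 in the first set (emN1 1 and anN1 1) and 2.38 to 2.71 in the second, where emN1 2 had 2.38 and wild-type 2.71 and 2.66. The same ratio for Gapdh did not: it was 4.79 in emN1 1 and 6.96 in anN1 1, and 4.64 to 5.45 in the second set. Their part in the values was not tested.

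**Figure D4:**
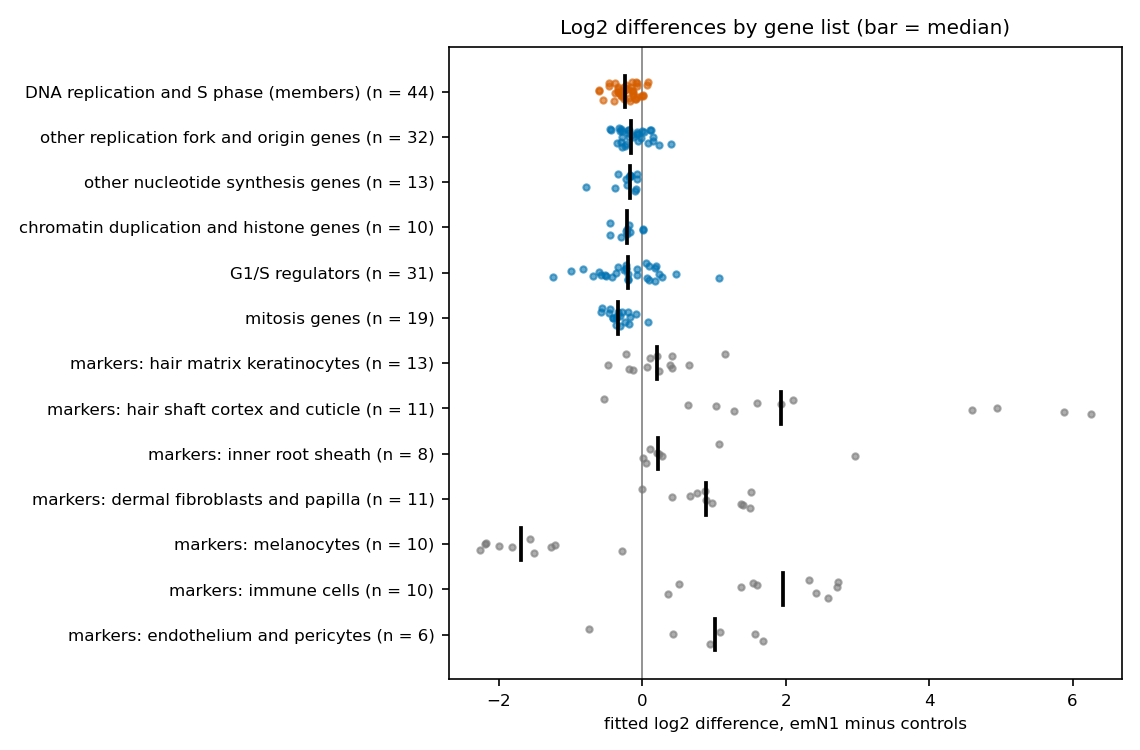
Fitted log2 differences, emN1 minus controls, of the members (orange), related gene lists (blue) and marker lists (grey), 1 point per kept gene and a bar at the median. The module clusters around -0.24, the G1/S regulators spread from -1.24 to 1.08, and the marker medians run from -1.69 (melanocytes) to 1.97 (immune cells), with hair matrix (0.20) and inner root sheath (0.22) as near to 0 as the module.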

How the data were processed

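The deposited table holds 1 linear signal intensity per probe set and array; the authors made these values with MAS5, per the submitters' processing notes, with no version or settings recorded there. Each array's trimmed mean, leaving out the lowest 2 and the highest 2 percent, was 1500, so no further scaling was applied. Of 45101 probe sets 64 controls were left out, and the brightest 60% by mean log2 signal (27022) were kept. Symbols came from the platform annotation (34958 probe sets with 1 symbol, 932 with several, 9211 with none); 44 member symbols matched RefSeq by gene identifier. Signals were taken as log2(signal + 17.8), the 10th percentile of all values, which understates changes of dim genes. Background was set by 20 undetected bacterial control probe sets (95th percentile 112).

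Differences were tested two-sided with lmFit and eBayes (intensity trend) of limma 3.58.1 under R 4.3.3, Benjamini-Hochberg adjusted over all kept probe sets, threshold 0.05. emN1 was set against 4 controls, and all 3 groups were compared in another fit, each with array set as a term, which is also the replicate number of emN1 and anN1; their replicate differences correlated with r = 0.38 across probe sets (-0.19 and -0.02 for pairs with wild-type, whose numbers mark no set). The fit was also tested on simulated data with known changes. Members named one by one were those past the threshold in any comparison, the 8 with the largest difference, and in each role group the largest difference and the brightest; from each related list up to 4 genes past the threshold, or the 2 with the smallest p; promoters were those of up to 6 such members with the most octamers. Members and lists were chosen with earlier results of these data known. Alternatives were the addend, filter, scaling, trend, array set, probe set rule and each array left out. Precision is limited by the 6 arrays. Figures were drawn with matplotlib 3.10.9.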

Additional observations from a re-analysis of the deposited data

Results flagged for a closer look

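Among the 18 members described one by one, 4 had 1 control array that stood apart from the other 3 by Dixon's test (a gap over range above its critical value for 4 arrays); chance alone flags about 1 in 20 such groups. For Gmnn (gap over range 0.965), Rfc3 (0.942) and Pold1 (0.871) this was anN1 1, which was higher than anN1 2 and both wild-type arrays and is the only control of the first array set. For Rpa3 (0.845) it was anN1 2, lower than the other controls at 3734.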

How the results depend on the processing

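Over the 14 alternatives, the 18 members described one by one gave 252 values. Of these, 236 kept direction and side of the threshold, 6 lost the call, 1 gained it and 9 reversed. The filter and trend alternatives cannot change a direction, and leaving out either array of the first set gives the same difference. The reversed values were of Gins1 (0.02 as reported), Mcm7 and Prim1. Gins1 stood at -0.00414 with equal array medians, -0.00395 with quantile scaling, -0.0181 with no replicate block, and -0.182 to 0.315 with 1 array left out (-0.182 without either array of the first set, and at -0.0011 without wild-type replicate 2); Mcm7 at 0.0222 with no replicate block; and Prim1 at 0.027 with no replicate block and -0.158 to 0.0529 with 1 array left out (above 0 without emN1 replicate 2). The cause was not tested. For emN1 minus controls, 1 member was called, and 0 without the trend, 0 with no replicate block (array set left out of the model) and 0 to 1 with 1 array left out; averaging probe sets called 1, Gmnn in place of Dut. For emN1 minus wild-type, 1 was called, and 0 with no filter, equal medians, no trend, no replicate block or averaged probe sets, and 0 to 2 with 1 array left out. For emN1 minus anN1, 0 were called, and 0 to 2 with 1 array left out (2 without wild-type replicate 1). The median difference ran from -0.267 to -0.115 against controls, -0.27 to -0.115 against anN1, -0.278 to -0.106 against wild-type, and -0.135 to 0.0123 for anN1 minus wild-type with 1 array left out, and was -0.142 against wild-type with no replicate block. Probe sets called over the whole array were 1020 against controls (0 without trend, 286 with no replicate block, 1 to 1092 with 1 array left out), 545 against anN1 (0, 42, 0 to 1269), 584 against wild-type (0, 215, 0 to 1375) and 20 for anN1 minus wild-type (0 without trend, 0 to 173). The 6 arrays limit every call.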

Other observations

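Among the G1 to S regulators that did not pass, the brightest probe sets of the other D cyclins did not share the direction of Ccnd1. Ccnd2 was the brightest of the D cyclin probe sets, with signals of 71478 and 52551 in emN1, 63201 and 54473 in anN1, and 46375 and 52266 in wild-type, and differed by 0.10 (SE 0.09). The other Ccnd2 probe sets ran from -0.08 to 0.24. Ccnd3 differed by 0.18 (SE 0.18), while its dim second probe set (mean signal 167) stood at -0.69 (SE 0.41). Cdk6, another partner of D cyclins, differed by 0.48 (SE 0.13, limma adjusted p = 0.106). The difference between Ccnd1 and these genes was not tested. The activating factors E2f1, E2f2 and E2f3 differed by -0.22 (SE 0.22), -0.08 (SE 0.13) and 0.24 (SE 0.11), and a second E2f2 probe set of similar brightness by -0.45 (SE 0.15, limma adjusted p = 0.161). Mycn differed by -0.68 (SE 0.19) and Myc by 0.27 (SE 0.12), neither past the threshold. Levels of different probe sets are not compared as amounts of RNA.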
